A study of Ambystoma mexicanum with 5 samples.

Results

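Annexins are proteins that bind membranes rich in acidic phospholipids, such as phosphatidylserine, when calcium rises. Each has a conserved core that carries the calcium sites and a variable tail that binds partners, among them small S100 proteins and penta-EF-hand proteins. In vertebrate cells they are known for work in endocytosis, exocytosis, plasma membrane repair and the control of inflammation. The annexin gene models described here are the rows of the deposited count table whose gene name begins with ANXA and a digit, 12 of 100758 rows. They carry 8 symbols: ANXA1 has 4 gene models, ANXA11 has 2, and ANXA2, ANXA4, ANXA6, ANXA7, ANXA9 and ANXA13 have 1 each. ANXA3 and ANXA5, also sought by name, matched no gene name. A row without a gene name whose deposited protein description is annexin A5 is given separately at the end of the account of the members and is not counted among the 12.

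RNA was sequenced from kidneys of 5 axolotls (Ambystoma mexicanum, a salamander), 1 library per animal. The 3 control animals were untreated, and the 2 injured animals had received gentamicin, an aminoglycoside antibiotic that proximal tubule cells take up and that damages them. The dose, the interval after treatment and the age and strain of the animals are not used here. The question the groups address is what kidney injury does to gene expression in an animal studied for kidney regeneration. The libraries are called control 1, 2 and 3 and gentamicin 1 and 3, as their labels number them, and held 13674201 to 16404879 counts.

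The kidney label fitted the markers of nephron segments in controls, where LRP2, the endocytic receptor megalin, stood at 1544 CPM (read counts scaled to library size), the phosphate transporter SLC34A1 at 1923 CPM and the salt transporter SLC12A1 at 1465 CPM on average. The summed level of 23 gene models of 11 proximal tubule markers was 8305 to 10208 CPM in controls and 595 to 639 CPM after gentamicin. The summed level of 12 gene models of 10 macrophage markers was 184 to 241 CPM in controls and 1528 to 1811 CPM after gentamicin, with the marker CD163 at 0 in every library and the defining receptor CSF1R at 33.9 and 195 CPM on average. Of the other marker lists, granulocytes spanned 163 to 331 CPM and 282 to 467 CPM, lymphocytes 31.5 to 58.5 and 90.5 to 126 CPM, the distal nephron 4928 to 6274 and 2846 to 3259 CPM, and podocytes 611 to 723 and 619 to 663 CPM. Endothelial markers spanned 299 to 387 and 303 to 339 CPM, fibroblast and mural markers 4680 to 8452 and 7094 to 7276 CPM, and erythroid markers 300 to 497 and 424 to 450 CPM. In these bulk samples fewer cells of a type and less RNA per cell cannot be told apart.

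The annexins did not move as 1 group. ANXA2, 2 of the 4 ANXA1 gene models and ANXA9 rose after gentamicin, by 1.43- to 2.03-fold, while ANXA6 fell 2.73-fold and ANXA4 fell 1.56-fold. ANXA7, ANXA11, ANXA13 and the other ANXA1 models did not pass the test. All 12 models passed the filter on low counts, and 4 were called higher and 2 lower by the quasi-likelihood test of edgeR, with an adjusted p below 0.05. Among the 22006 genes tested, 13.3% were called higher and 13.4% lower, or 26.8% in all, against 50% of the annexin models. Calls were more frequent among abundant genes: at a mean of at least 50 CPM, a limit chosen after the values were seen, 16.2% of 3468 genes were called higher and 31.9% lower, or 48.0% in all. At that level 10 annexin models remained, with 4 higher and 2 lower (60%), so the share called in either direction stood near that of other abundant genes. The split by direction differed, with more annexin models higher than lower and more abundant genes lower than higher. It rests on 10 models and was not tested. The 4 higher models include 2 ANXA1 models that overlap in the genome and may share reads. With the models of each symbol summed, an alternative chosen after seeing the data, 3 symbols were higher and 2 lower. The median log2 fold change of the 12 models was 0.38, against 0.01 over all tested genes. Scaled to total counts in place of TMM factors (trimmed mean of M-values), which moved the median log2 fold change of all genes by 0.32, 8 models were called higher and 1 lower.

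In levels per length, which allow genes to be compared, ANXA2 was the most abundant annexin model in controls at 268 ± 39.0 FPKM (read counts scaled to library size and gene length; SD, n = 3). The ANXA1 model AMEX60DD043188 at 193 ± 20.4 FPKM and ANXA4 at 182 ± 15.8 FPKM came next, and these overlapped each other but not ANXA2. The ANXA1 model AMEX60DD043186 followed at 95.6 ± 6.48 FPKM. The ANXA1 model AMEX60DD043189 (65.3 ± 8.55 FPKM) and ANXA6 (59.4 ± 6.17 FPKM) overlapped each other, as did ANXA7 (45.7 ± 2.24 FPKM) and the ANXA11 model AMEX60DDU001024492 (44.8 ± 2.2 FPKM). The second ANXA11 model stood at 34.1 ± 2.41 FPKM and ANXA9 at 17.4 ± 1.38 FPKM. ANXA13 and the remaining ANXA1 model lay under 1.1 FPKM in each control and overlapped.

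After gentamicin ANXA2 was again first, at 546 ± 59.3 FPKM (SD, n = 2), and the ANXA1 model AMEX60DD043188 second, at 333 ± 31.9 FPKM. The order changed below these. The ANXA1 model AMEX60DD043189 came next at 131 ± 6.98 FPKM, above ANXA4 at 117 ± 7.59 FPKM with no overlap. ANXA6, which had stood sixth in the order in controls, stood at place 10 with 21.8 ± 3.31 FPKM and overlapped ANXA9 at 24.996 ± 3.30 FPKM. Ranked by FPKM among all 100758 rows, ANXA2 held places 194 to 235 in controls and 63 to 68 after gentamicin, and ANXA6 held places 788 to 960 and then 1705 to 2005. The 12 models together took 0.339% to 0.350% of total counts in controls and 0.520% to 0.544% after gentamicin. These shares are not scaled by TMM factors. With TMM scaling the difference was smaller, at a sum of 3651 to 3835 CPM in controls and 4439 to 4905 CPM after gentamicin.

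**Figure D1:**
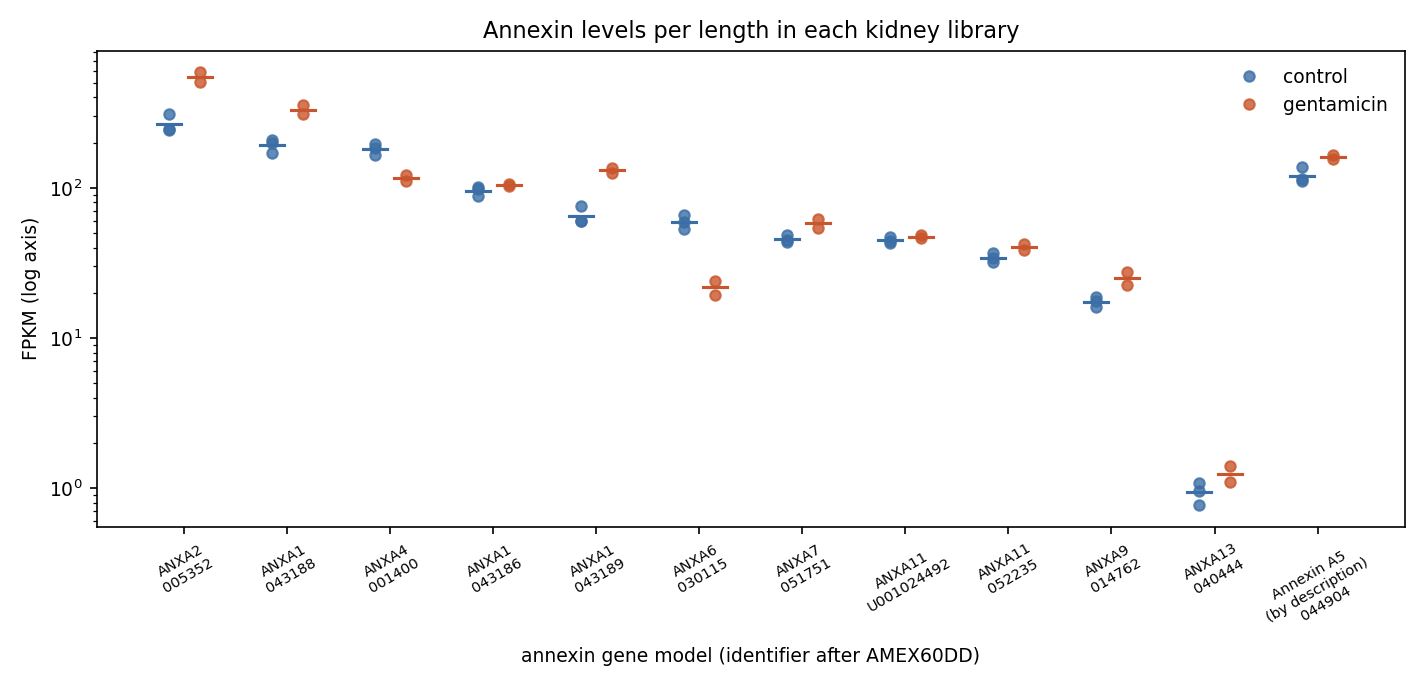
Levels of annexin gene models in each library, in FPKM on a log axis, with controls (n = 3) in blue, gentamicin libraries (n = 2) in orange and a line at each group mean. ANXA2 leads in both groups, and ANXA6 and ANXA4 are the models whose gentamicin libraries lie below every control; the weak ANXA1 model AMEX60DD043190, at 0 in control 1, is left out of the log axis.

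ANXA2 binds S100A10 in a heterotetramer that works at the plasma membrane and on endosomes and that serves as a docking site for plasminogen. The gene model (AMEX60DD005352, chromosome 11q, 721529819 to 721665119) had 447, 348 and 359 CPM in controls 1, 2 and 3 and 843 and 721 CPM in gentamicin 1 and 3. Both gentamicin libraries lay above every control. The log2 fold change was 1.02 ± 0.15 (SE; adjusted p = 0.00149 in edgeR), or 2.03-fold. ANXA2 was the only 1 of the 12 annexin models called higher by at least 2-fold, a share near the 7.43% of tested genes. Its log2 fold change was under 1 without control 2, control 3 or gentamicin 1 and with the label number as a block (0.91 to 0.96).

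ANXA1 is an anti-inflammatory mediator that limits phospholipase A2 activity and, once secreted, acts on formyl peptide receptors of leukocytes. Its 4 gene models lie in a row on the plus strand of chromosome 6p, from 1111453367 to 1113166925. The model AMEX60DD043189 (1112229055 to 1112536930) lies within AMEX60DD043188 (1111958253 to 1112823828), so reads may be shared between or lost from these models and the value of each is uncertain. AMEX60DD043188 had 657, 767 and 820 CPM in controls and 1376 and 1197 CPM after gentamicin. The groups were apart, with a log2 fold change of 0.78 ± 0.14 (SE; adjusted p = 0.0043 in edgeR). AMEX60DD043189 had 130, 129 and 163 CPM in controls and 291 and 269 CPM after gentamicin. It rose 1.99-fold, a log2 fold change of 0.99 ± 0.14 (SE; adjusted p = 0.00111 in edgeR).

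The first model of the row, AMEX60DD043186 (1111453367 to 1111804682), held the most counts of all annexin models in controls. It had 1167, 1203 and 1063 CPM in controls and 1270 and 1220 CPM after gentamicin. The gentamicin libraries were the higher ones by a narrow margin, and the model did not pass the test (log2 fold change 0.12, 95% interval -0.15 to 0.40, adjusted p = 0.506 in edgeR). With total-count scaling it was called higher (log2 fold change 0.44, adjusted p = 0.0138 in edgeR). The last model, AMEX60DD043190 (1112952968 to 1113166925), had 0, 54 and 6 counts in controls and 117 and 10 after gentamicin. Its levels overlapped, differed widely within both groups and gave no call (adjusted p = 0.656 in edgeR). With gentamicin 1 left out its log2 fold change turned from 1.33 to -1.47. When the counts of the 4 models were summed, an alternative chosen after seeing the data, ANXA1 rose by a log2 fold change of 0.47 (adjusted p = 0.0233 in edgeR).

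The share of counts that each of the 3 abundant ANXA1 models took differed between groups within the locus. AMEX60DD043186 held 59.7%, 57.3% and 52.0% of their counts in controls 1, 2 and 3 and 43.2% and 45.4% in gentamicin 1 and 3. AMEX60DD043188 held 33.6% to 40.1% in controls and 46.9% and 44.6% after gentamicin, and AMEX60DD043189 held 6.16% to 7.96% and then 9.92% and 10.02%. The first model therefore held more counts than the other abundant models together in each control and fewer in both gentamicin libraries. The ratio of AMEX60DD043188 to AMEX60DD043186 was 1.58-fold higher after gentamicin and did not overlap (exact permutation p = 0.2, two-sided, adjusted p = 0.233 over the 7 ratios computed, where 0.2 is the smallest raw p that 3 against 2 libraries allow).

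**Figure D2:**
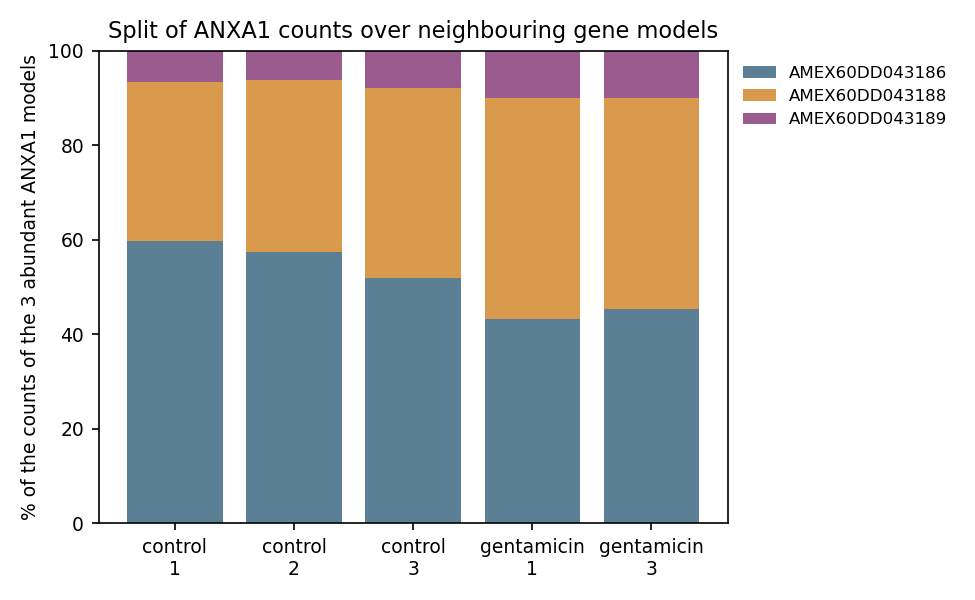
Share of the counts of the 3 abundant ANXA1 gene models that each took, in percent, with 1 bar per library. The lowest segment, AMEX60DD043186, takes 52.0% to 59.7% in controls and 43.2% to 45.4% after gentamicin, and the other segments are larger after gentamicin.

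ANXA9 is a family member known in human for a core whose calcium sites have lost conserved residues. Its model (AMEX60DD014762, chromosome 1p, 632321357 to 632546487) had 71.7, 76.9 and 66.0 CPM in controls and 92.9 and 112 CPM after gentamicin. The groups did not overlap, and the log2 fold change was 0.52 ± 0.13 (SE; adjusted p = 0.0187 in edgeR). The call was lost without control 3 (adjusted p = 0.0604 in edgeR) and on the unfiltered FPKM (0.0824 in limma). It was also lost without gentamicin 3, at a log2 fold change of 0.38. Here and below, a fit without a gentamicin library leaves 1 library in that group, so a lost call alone does not show a smaller change.

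ANXA6 is the largest annexin of vertebrates, with a duplicated core, and is known for membrane repair, endosome traffic and cholesterol handling. Its model (AMEX60DD030115, chromosome 3q, 659359171 to 659633753) had 233, 259 and 212 CPM in controls and 95.2 and 76.5 CPM after gentamicin. Every control was more than double the higher gentamicin library. The log2 fold change was -1.45 ± 0.15 (SE; adjusted p = 0.00024 in edgeR), the largest called change of the 12 models in either direction. ANXA6 was the only 1 of the 12 models called lower by at least 2-fold, a share near the 7.75% of tested genes.

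ANXA4 is an annexin of epithelia, in the kidney found in tubule cells, that orders membrane lipids. Its model (AMEX60DD001400, chromosome 10p, 607667826 to 607886530) had 673, 632 and 572 CPM in controls and 421 and 383 CPM after gentamicin. All controls lay above both gentamicin libraries, with a log2 fold change of -0.64 ± 0.13 (SE; adjusted p = 0.00711 in edgeR). The call was lost without gentamicin 3 (adjusted p = 0.0641) and with total-count scaling, where the log2 fold change was -0.32 (adjusted p = 0.0573). The marker lists with lower summed levels and no overlap between groups, beside ANXA4 and ANXA6, were those of the proximal tubule (15.3-fold) and the distal nephron (1.77-fold). Higher levels beside ANXA2, ANXA9 and the called ANXA1 models were found for macrophage (7.89-fold), lymphocyte (2.28-fold) and granulocyte markers (1.61-fold, with overlap between groups). Of their tested models 8 of 9, 5 of 8 and 6 of 9 were called higher and 0 lower, against 13.3% and 13.4% of all tested genes. Of the proximal tubule models 18 of 18 were called lower, and of the distal nephron models 10 of 20 lower and 1 higher. Mean sums of endothelial (1.10-fold) and podocyte markers (1.06-fold) were lower, with overlap. Those of fibroblast and mural (1.15-fold) and erythroid markers (1.11-fold) were higher, also with overlap. The part of these lists in the annexin changes was not tested.

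ANXA7, or synexin, binds the penta-EF-hand protein sorcin and fuses membranes in vitro. Its model (AMEX60DD051751, chromosome 8p, 705267581 to 706443439) had 200, 188 and 184 CPM in controls and 260 and 224 CPM after gentamicin. The groups did not overlap, but the test was not passed (log2 fold change 0.34, 95% interval 0.08 to 0.61; adjusted p = 0.0621 in edgeR). It passed in DESeq2 (adjusted p = 0.0279), without the filter on low counts (0.0462) and with total-count scaling (0.00214).

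ANXA11 binds the penta-EF-hand protein PDCD6 and, in mammalian neurons, ties RNA granules to lysosomes. Its model on chromosome 8q (AMEX60DD052235, 245233737 to 245527644) had 129, 149 and 139 CPM in controls and 171 and 156 CPM after gentamicin. The second model (AMEX60DDU001024492, contig C0153256, 19570 to 41998) had 69.5, 76.6 and 71.7 CPM in controls and 74.7 and 77.9 CPM after gentamicin. Neither passed the test (log2 fold changes 0.24, 95% interval -0.03 to 0.50, and 0.07, 95% interval -0.18 to 0.32; adjusted p = 0.178 and 0.676 in edgeR). Both were called higher with total-count scaling (adjusted p = 0.0069 and 0.0291). They carry the same symbol and may be pieces or copies of 1 gene, which leaves the level of each uncertain.

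ANXA13, known in mammals from epithelia of the intestine and kidney, was close to the floor. Its model (AMEX60DD040444, chromosome 5q, 1016596170 to 1016780642) had 21, 19 and 27 counts in controls and 33 and 48 after gentamicin. In CPM the groups did not overlap, at 1.38 to 1.95 in controls against 1.96 and 2.50 after gentamicin, but the test was not passed (adjusted p = 0.452 in edgeR). The groups of 8 annexin models did not overlap with gentamicin higher and those of 2 with gentamicin lower. Among all tested genes the shares were 28.6% and 26.7%, or 55.3% in all.

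The unnamed model described as annexin A5 (AMEX60DD044904, chromosome 6q, 644939842 to 645333811) was chosen after its values were seen. Annexin A5 binds exposed phosphatidylserine and is used as a probe of dying cells. It had 287, 234 and 242 CPM in controls and 346 and 328 CPM after gentamicin, with no overlap. The log2 fold change was 0.41 ± 0.13 (SE, adjusted p = 0.0486 in edgeR). The call was lost without control 2 or control 3 (adjusted p = 0.137 and 0.13 in edgeR). Without gentamicin 1 or gentamicin 3 it was also lost, at log2 fold changes of 0.37 and 0.44. It was lost too with upper-quartile scaling (0.0515), DESeq2 size factors (0.0594) and the label number as a block (0.125), all in edgeR. Every limma fit of the FPKM lost it as well (0.0647 to 0.13).

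**Figure D3:**
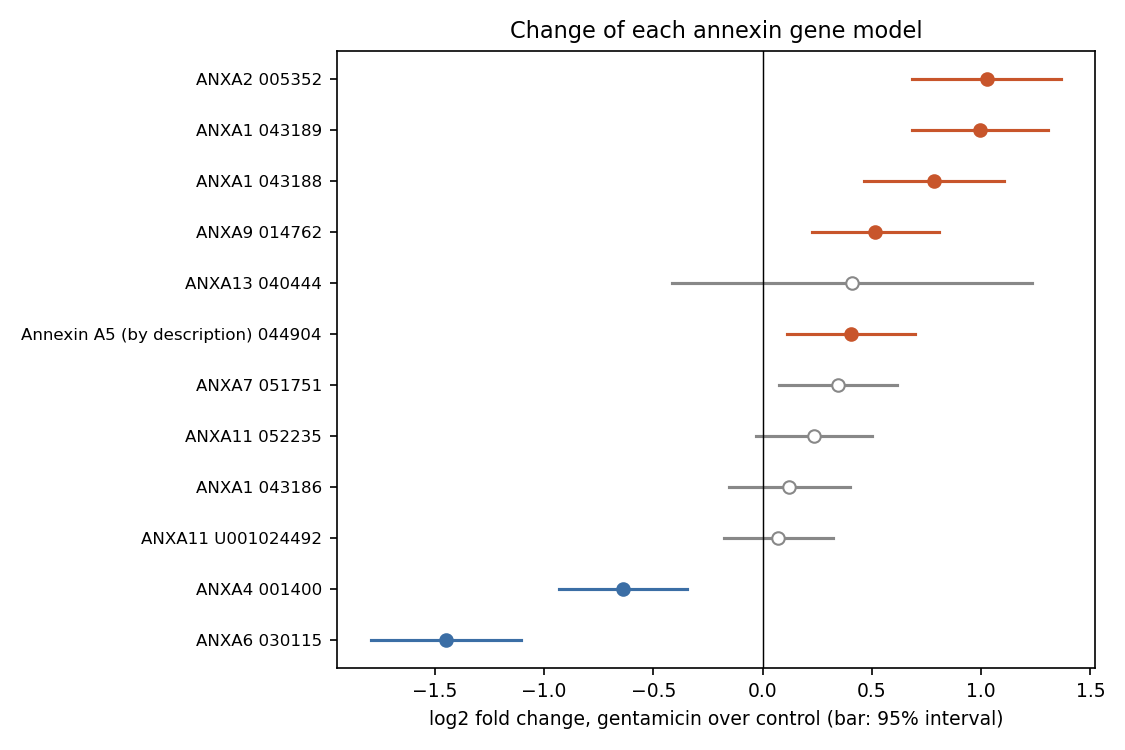
Log2 fold change of each annexin gene model, gentamicin over control, as a point with its 95% interval. Filled orange points were called higher, filled blue points lower and open points not called; ANXA6 at -1.45 and ANXA2 at 1.02 are the ends of the range, and the weak ANXA1 model AMEX60DD043190 is left out for its wide interval (-3.66 to 6.33).

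Ratios between annexins within a library do not depend on how libraries are scaled. In raw counts, ANXA2 stood to ANXA4 as 0.664, 0.550 and 0.627 in controls and as 2.004 and 1.88 after gentamicin. ANXA4 thus held more counts than ANXA2 in every control and fewer in both gentamicin libraries. ANXA2 to ANXA6 was 1.92, 1.34 and 1.69 in controls and 8.86 and 9.42 after gentamicin, a 5.59-fold difference of the group means on the log scale. ANXA7 to ANXA6 was 0.724 to 0.867 in controls and 2.73 and 2.93 after gentamicin. The 3 abundant ANXA1 models together stood to ANXA4 as 2.90 to 3.58 and then 6.98 and 7.02. None of these 4 ratios overlapped between groups (exact permutation p = 0.2 each, two-sided, the smallest possible, adjusted p = 0.233 over 7 ratios). In CPM the upper member of each ratio was higher after gentamicin and the lower member lower, without overlap. The separation follows from those changes and is no separate evidence. The ratio of the ANXA11 models, 1.86 to 1.95 in controls and 2.29 and 1.999 after gentamicin, differed by 1.12-fold (exact permutation p = 0.2; adjusted p = 0.233).

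**Figure D4:**
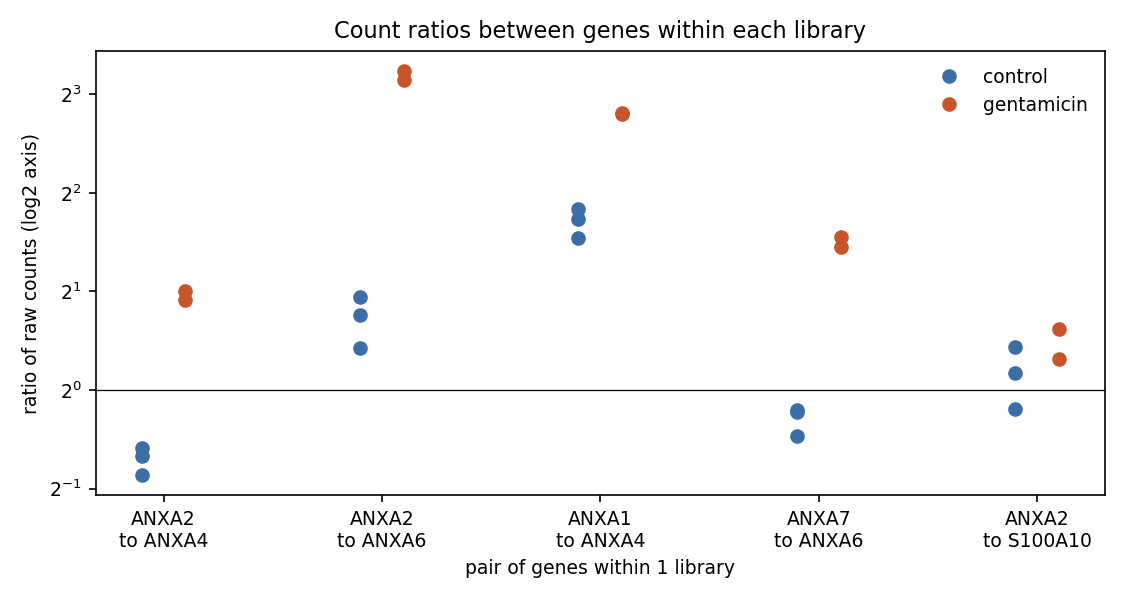
Ratios of raw counts between pairs of genes within each library, on a log2 axis, with controls (n = 3) in blue and gentamicin libraries (n = 2) in orange. The ratio of ANXA2 to ANXA4 moves from 0.550 to 0.664 in controls to 1.88 to 2.004 after gentamicin, while the ratio of ANXA2 to S100A10 overlaps between groups.

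S100 proteins are small calcium-binding dimers, several of which hold annexins by their tails. Of 9 tested gene models 4 rose and 1 fell, against 13.3% and 13.4% of all tested genes, with a median log2 fold change of 1.35 against 0.01. With total-count scaling 4 were higher and 0 lower. The median is uncertain, because uncalled models of S100A4, S100A13 and S100P (AMEX60DD045919) lie above it, at 1.91, 1.92 and 2.51. Each of these had most of its counts in control 2 and gentamicin 1. S100A4 had 0, 529 and 5 counts in controls and 1608 and 46 after gentamicin. S100A10, the partner of ANXA2, had 331, 309 and 409 CPM in controls and 678 and 468 CPM after gentamicin (AMEX60DD014975; log2 fold change 0.71 ± 0.19, SE; adjusted p = 0.0266 in edgeR). The call was lost without control 1 or control 2 (adjusted p = 0.0558 and 0.0748 in edgeR) and without gentamicin 1, where the log2 fold change was 0.42. It was also lost with the label number as a block (0.124 in edgeR) and in every limma fit of the FPKM (0.0571 to 0.126). The ratio of ANXA2 to S100A10 was 1.35, 1.13 and 0.877 in controls and 1.24 and 1.54 after gentamicin and overlapped (exact permutation p = 0.4, two-sided; adjusted p = 0.4). A second, weak S100A10 model (AMEX60DD054671) was under 1 CPM in each library and was not called (adjusted p = 0.36 in edgeR).

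S100A11, a partner of ANXA1, rose from 645 ± 8.02 to 974 ± 139 CPM (SD, n = 3 and 2; adjusted p = 0.00999 in edgeR), a call lost without gentamicin 1 (adjusted p = 0.0709). S100P, the most abundant of the S100 models per length, rose 2.55-fold from 775 ± 195 CPM (AMEX60DD045921; adjusted p = 0.00213 in edgeR). S100Z rose from 2.59 ± 1.45 to 10.2 ± 3.36 CPM (adjusted p = 0.0162 in edgeR), and S100A1 fell from 13.8 ± 2.84 to 8.38 ± 0.01 CPM (adjusted p = 0.0388 in edgeR). The number of higher S100 models was 2 without control 1 and 1 without gentamicin 1. S100A1 was not called without control 2 or control 3 (adjusted p = 0.086 and 0.0878 in edgeR). Without gentamicin 1 or gentamicin 3 it was not called either, at a log2 fold change of -0.72 in both, against -0.73 with all libraries. S100Z was not called without control 1 (adjusted p = 0.0514 in edgeR) or without gentamicin 1, at a log2 fold change of 1.59. S100A6, S100A8 and S100A9 matched no gene name.

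Penta-EF-hand proteins are the calcium-dependent partners of ANXA7 and ANXA11. Of 4 tested genes 1 was called, a share near the 26.8% of all tested genes. With total-count scaling 3 were called higher. PDCD6, or ALG-2, rose 1.72-fold, from 28.7 ± 3.24 to 49.4 ± 1.08 CPM (adjusted p = 0.00324 in edgeR). SRI, or sorcin, had 386 ± 15.6 and 324 ± 52.5 CPM and did not pass (adjusted p = 0.206 in edgeR). GCA, or grancalcin, had 124 ± 19.1 and 162 ± 11.7 CPM (adjusted p = 0.0955), and PEF1 had 72.5 ± 12.1 and 86.1 ± 4.72 CPM (adjusted p = 0.282).

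Plasminogen activation is the proteolytic cascade that the ANXA2 tetramer supports at the cell surface. Of 19 tested gene models 6 rose and 1 fell (13.3% and 13.4% over all tested genes), with a median log2 fold change of 0.03. The list mixes activators with protease inhibitors, so these numbers give no direction of proteolysis. The models called higher include the inhibitors SERPINE2 (1.45-fold, adjusted p = 0.00999 in edgeR) and TFPI (1.64-fold, adjusted p = 0.00188 in edgeR). The tissue plasminogen activator PLAT rose 3.82-fold, from 23.6 ± 0.31 to 90.1 ± 1.3 CPM (adjusted p = 8.84e-06 in edgeR). The urokinase PLAU rose 5.10-fold (adjusted p = 2.4e-05) and its receptor PLAUR 4.98-fold to 123 ± 17.6 CPM (adjusted p = 5.54e-05). The gene called lower was ENO1, a glycolytic enzyme that also binds plasminogen, in its abundant model AMEX60DD051188, from 1191 ± 54.4 to 775 ± 93.6 CPM (adjusted p = 0.00942), a call lost with gentamicin 3 left out or with total-count scaling (adjusted p = 0.0703 and 0.0705). Without control 1 the number lower in the list was 2, and with total-count scaling 8 were higher and 0 lower. PLG, plasminogen itself, had 1 to 9 counts in each library and was not tested.

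ANXA1 is linked to eicosanoid synthesis through phospholipase A2 and to leukocytes through formyl peptide receptors. In the list of these genes 6 of 27 tested models rose and 5 fell, where 13.3% and 13.4% of all tested genes did, and the median log2 fold change was 0.24. With total-count scaling 12 were called higher and 4 lower. The receptor FPR2 had 4, 6 and 2 counts in controls and 43 and 10 after gentamicin, too few for the filter on low counts, and FPR1 matched no gene name. The cytosolic phospholipase PLA2G4A had 54.3 ± 3.71 and 64.2 ± 7.72 CPM and was not called (adjusted p = 0.199 in edgeR), whereas a PLA2G4C model, AMEX60DD017493, rose 5.03-fold from 9.70 ± 1.65 CPM (adjusted p = 2.91e-05). The cyclooxygenase PTGS2 had 23.7, 49.5 and 57.0 CPM in controls and 93.2 and 138 CPM after gentamicin and missed the threshold (adjusted p = 0.0666). It passed without control 1 (0.00531) and in DESeq2 (0.0241). Of the leukotriene branch, ALOX5AP, the lipoxygenase-activating protein, rose 2.58-fold (adjusted p = 0.000463), while LTA4H, a leukotriene hydrolase, fell 1.93-fold (adjusted p = 0.00116). The 5-lipoxygenase ALOX5 has 7 tested models, which may share reads, with 2 called higher and 1 lower. AMEX60DD051725 fell 2.60-fold (adjusted p = 0.000126), AMEX60DD013439 rose 1.74-fold (adjusted p = 0.00328; 0.0509 without gentamicin 3) and AMEX60DD051718 rose 1.65-fold (adjusted p = 0.0416). The last call was lost with control 1, control 3, gentamicin 1 or gentamicin 3 left out (adjusted p = 0.0636 to 0.187). Without gentamicin 3 the number lower in the list was 2.

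Genes of plasma membrane repair, in which annexins patch wounds together with ferlins, calpains and the ESCRT machinery, had 10 of 40 tested models higher and 4 lower, against 13.3% and 13.4% of all tested genes, and a median log2 fold change of 0.30. Total-count scaling gave 20 higher and 3 lower. Among all genes at a mean of at least 50 CPM the shares were 16.2% higher and 31.9% lower. No partner list was split by abundance. The calpain CAPN2, a calcium-activated protease, rose 2.88-fold, from 35.8 ± 2.24 to 103 ± 3.85 CPM (adjusted p = 3.82e-05 in edgeR). The ferlin FER1L4 rose 2.15-fold (adjusted p = 0.00398; 0.0561 without gentamicin 1). The endosomal ATPase EHD3 fell 1.85-fold (adjusted p = 0.001). Of 5 tested models of the calpain CAPN1, 2 were called higher and 1 lower. AMEX60DD025178 rose from 137 ± 6.11 to 195 ± 6.09 CPM (log2 fold change 0.51, adjusted p = 0.00921 in edgeR). Its call was lost without gentamicin 1 or gentamicin 3, at log2 fold changes of 0.54 and 0.48. The weaker AMEX60DD024408 fell from 14.1 ± 3.37 to 3.94 ± 0.65 CPM (adjusted p = 0.00133). AMEX60DD036236 had 0, 1 and 1 counts in controls and 13 and 57 after gentamicin (adjusted p = 0.00584; 0.169 without gentamicin 3). Dysferlin, DYSF, had 129 ± 9.61 and 147 ± 0.79 CPM and was not called (adjusted p = 0.255). Of the myoferlin models, AMEX60DD052625 fell 1.39-fold (MYOF; adjusted p = 0.0227), a call lost without gentamicin 1 (0.148) or gentamicin 3 (0.128), and AMEX60DD052624 was not called (adjusted p = 0.231). The number of higher genes in the list was 3 without gentamicin 1 and 2 without gentamicin 3, and the number lower was 2 without gentamicin 3.

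Phosphatidylserine, the lipid that annexins bind, is exposed by scramblases, returned by flippases and read by receptors of phagocytes. In this list 10 of 28 tested models rose and 3 fell (13.3% and 13.4% over all tested genes), with a median log2 fold change of 0.31. The numbers were 15 and 2 with total-count scaling. The receptor kinase AXL rose 6.40-fold, from 28.0 ± 2.2 to 179 ± 9.53 CPM (adjusted p = 3.94e-06 in edgeR). Its bridging ligand GAS6 rose 3.54-fold (adjusted p = 2.13e-05). Of the models of PROS1, another such ligand, AMEX60DD002023 rose 3.12-fold from 62.4 ± 7.30 CPM (adjusted p = 6.44e-05), and AMEX60DD048309 had 51.1 ± 11.8 and 69.8 ± 2.05 CPM and was not called (adjusted p = 0.121). The latter passed without control 2 (0.0384), without the filter on low counts (0.00828) and with total-count scaling (0.0171). The related receptor MERTK rose from 5.55 ± 0.69 to 9.72 ± 0.53 CPM (log2 fold change 0.81, adjusted p = 0.0225 in edgeR), a call lost without control 3 (0.0592). Without gentamicin 1 or gentamicin 3 the call was also lost, at log2 fold changes of 0.86 and 0.75. The flippase ATP8A1 fell 3.60-fold (adjusted p = 0.000692). Without either gentamicin library the number of higher genes was 4, and without gentamicin 1 the number lower was 1. The summed level of macrophage markers was 7.89-fold higher beside these genes, and its part was not tested.

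Copines, another family of calcium-dependent phospholipid-binding proteins, had 1 of 7 tested models higher, a share near the 13.3% of all tested genes, and none lower, with a median log2 fold change of 0.19. Total-count scaling gave 2 higher. CPNE1 rose 1.58-fold, from 132 ± 6.0 to 208 ± 12.9 CPM (adjusted p = 0.00305 in edgeR). CPNE3 had 103 ± 6.13 and 117 ± 7.32 CPM and was not called (adjusted p = 0.268), and CPNE6 and the CPNE2 model AMEX60DD015413 stayed under 5 CPM in each library and were not called (adjusted p = 0.283 and 0.465).

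**Figure D5:**
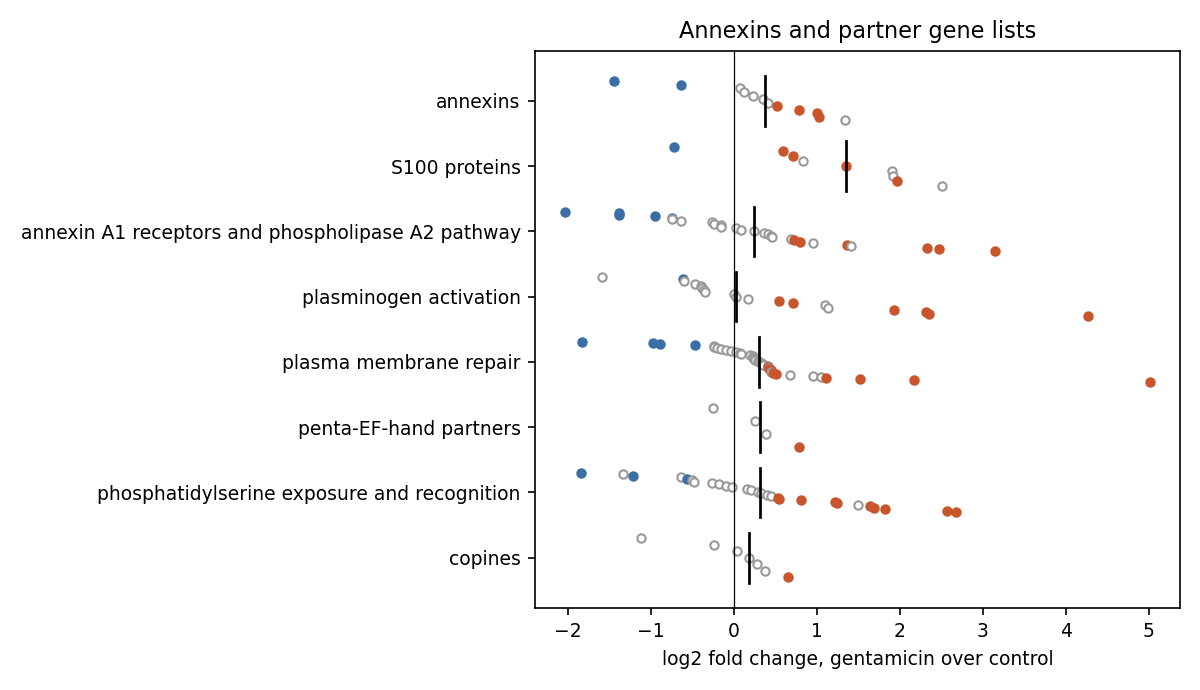
Log2 fold change, gentamicin over control, of every tested gene model of the annexins and of 7 partner lists, 1 point per model, with called models filled (orange higher, blue lower), others open and a black line at each list's median. The annexins span -1.45 to 1.33 with a median of 0.38, and the list of plasminogen activation has its median near 0.

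The genes most like ANXA2 over the 5 libraries, by the root mean square difference of log2 CPM after centring each gene, were TNFRSF11A (0.05), a receptor of the TNF family, MACC1 (0.07), a regulator of the HGF receptor gene in human cells, and ERAP1 (0.07), a peptidase that trims antigens. Their log2 fold changes were 1.10, 1.02 and 1.01. The genes most like ANXA6 were GSTM1 (0.07), a glutathione transferase, SLC6A12 (0.08), a betaine transporter, and RBKS (0.08), a ribokinase, with log2 fold changes of -1.35, -1.58 and -1.37. The differences were taken over 14632 genes that carry a symbol and average at least 1 in log2 CPM, and they describe these 5 libraries only.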

How the data were processed

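Total RNA of 5 kidneys was isolated with TRIzol and made into libraries with an NEBNext Ultra kit, per the labels' protocols. The tools in the submitters' processing notes are the aligner HISAT2 2.0.5, the read counter featureCounts 1.5.0-p3, fastp, CASAVA 2.19 and DESeq2 1.20.0, listed without their settings. Neither a genome build nor whether counting used strand is given in the sources used here, so a gene's reads cannot be separated from those of an overlapping or antisense partner. Coordinates are those of the deposited tables. The authors deposited raw counts and FPKM in 2 tables whose names are exchanged. The deposited FPKM equal count over gene length and library total times 1 factor per library (0.839 to 1.09), of a source not stated in the labels.

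Counts were tested with edgeR 4.0.16 in R 4.3.3 (filterByExpr with a minimum count of 10 and total of 15, TMM, robust quasi-likelihood, two-sided, group as only term), with Benjamini-Hochberg adjustment over 22006 genes and calls at an adjusted p under 0.05. CPM are TMM-scaled. SE is the log2 fold change divided by the root of F. Each library is a different animal. No pair of libraries was alike within counting noise (smallest chi-square per degree of freedom 13.9). A gene at 0 counts could still reach up to 3 counts, or 0.156 to 0.244 CPM in a library, by counting error alone. Members, lists and tests were chosen with earlier results of these data known. Every annexin model is named, and of each list up to 4 members by p, 16 genes whatever their values and all called members of lists with 5 or fewer calls. Genes most like ANXA2, the most abundant model, and ANXA6, the most changed, were also named. ENO1, SERPINE2, TFPI, S100A4, S100A13 and further models of S100P, ALOX5, CAPN1 and PROS1 were named after their values were seen. A gene that the rule takes is not reported here. The fits were repeated with DESeq2 1.42.0, limma-voom from limma 3.58.1, other scalings and filters, the label number as a block, each library left out, and limma fits of the deposited FPKM after log2 with a pseudocount of 1 or 0.1. The procedure was tested on simulated data.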

Additional observations from a re-analysis of the deposited data

How the results depend on the processing

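Over all genes, 2931 were called higher and 2959 lower. Without gentamicin 1 or gentamicin 3 the counts were 1333 and 1368 higher and 1739 and 1627 lower, and over all libraries left out in turn they spanned 1333 to 2770 higher and 1627 to 2963 lower. Total-count scaling gave 6192 higher and 1895 lower (76.6% of calls higher), and limma on unfiltered log2(FPKM + 1) gave 1796 and 1828. For the annexin models, total-count scaling gave 8 higher and 1 lower, and a required 2-fold change gave 1 and 1. With a library left out there were 3 to 4 higher and 1 to 2 lower. ANXA2, ANXA6 and the ANXA1 models AMEX60DD043188 and AMEX60DD043189 stayed called in every alternative fit that gave them a value. Of these, only ANXA2 and ANXA6 met the required 2-fold change in the main fit. In total-count scaling SRI and the MYOF model AMEX60DD052624 turned to log2 fold changes of 0.063 and 0.085. The ANXA1 model AMEX60DD043190 ranged from -1.47 without gentamicin 1 to 2.24 without gentamicin 3; the cause was not tested. The labels state no pairing of samples by number. Deviations from the group mean of same-numbered libraries correlated at -0.04 and 0.06. The deviations of the 2 gentamicin libraries mirror each other, so these values cannot decide whether samples were paired. With the number as a replicate block 2118 genes were higher and 2367 lower, with 4 annexin models higher and 2 lower. Control 2 is the only library with its number, so its block absorbs it. The group difference in this fit rests on controls 1 and 3 and gentamicin 1 and 3, and a call lost there may come from lower power. Among named genes, the block removed the calls of S100A10, S100A1, S100Z, MERTK, MYOF AMEX60DD052625, ALOX5 AMEX60DD051718 and the annexin A5 row. Their adjusted p in edgeR ran from 0.0531 to 0.125. PTGS2 and PROS1 AMEX60DD048309 gained a call (0.00355 and 0.0334). The limma fit of unfiltered log2(FPKM + 1) removed the same calls and those of ANXA9, FER1L4 and CAPN1 AMEX60DD036236 (0.0538 to 0.189). With 2 gentamicin libraries the spread of that group rests on a single difference. A fit without either of them sets the controls against 1 library, so a call lost there may come from lower power.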
